A study of Drosophila melanogaster with 3 samples.

Results

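The regions described here are clustered binding summits of an eGFP-tagged Scute protein in Drosophila melanogaster embryos. A summit is the position of highest signal inside a region, and a summit was taken as clustered when 2 or more other summits of the authors' thresholded dm6 list lay within 5000 bp on the same chromosome. Of 3612 thresholded summits, 763 met this rule, a share of 21.1% (95% Wilson interval 19.8 to 22.5%). The rule used the measured summit positions, so the count and the distances below are a description and carry no test.

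The chromatin came from whole embryos of both sexes aged 0 to 14 h, from a transgenic line that stably carried GFP at the C-terminus of sc, the gene of Scute. Chromatin was sonicated to 200 to 800 bp and precipitated with an antibody against GFP in 3 biological replicates, which form a single group. The control was not analysed here and the samples used here include no untagged line, so signal that does not depend on the tagged protein cannot be told apart from binding. Whole embryos mix all cell types, so binding in few cells and weak binding in many cells cannot be told apart either. Signals are the authors' values, each on the scale of its own list, and the lists carry no read counts, so read depth is unknown.

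Scute is a proneural basic helix-loop-helix (bHLH) factor of the achaete-scute complex that pairs with Daughterless and binds E-boxes, short sites that start with CA and end with TG. Proneural factors give ectodermal cells the capacity to become neural precursors, and Notch signalling with its E(spl) target genes limits that capacity. Developmental regulatory genes of flies often carry several enhancers around a single gene, so a factor may have several summits there.

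The 763 clustered summits fell into 244 neighbourhoods. A neighbourhood is a chain of summits, each within 5000 bp of the next, that holds at least 1 clustered summit. The chains also took in 133 summits that did not meet the rule themselves and so held 896 in all. The neighbourhood with the highest summed signal among the 3 that held 8 clustered summits each lay over Raf (FBgn0003079), the kinase that links Ras to MAP kinase signalling. Its 8 summits ran over 10376 bp on the X chromosome (chrX:2293634-2304125, dm6). Windows of 50 bp on each side of 7 of those summits are shown, on the plus strand of the Release 6 genome sequence, because this neighbourhood ranks first by clustered summits and summed signal. The window of the third summit lay in a 5' UTR and is not shown. Summits are numbered along their neighbourhood, whichever gene is nearest. The first summit was a promoter summit for which the nearest start, at 310 bp, was that of CG2865. Capitals mark the E-box CATATG, the achaete-scute and Daughterless heptamer GCAGCTG or GCAGGTG, and the GAGA factor pentamer GAGAG, each on either strand.
Raf summit 1, chrX:2293671-2293771: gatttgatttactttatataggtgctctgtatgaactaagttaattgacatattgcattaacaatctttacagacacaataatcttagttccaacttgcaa
Raf summit 2, chrX:2294613-2294713: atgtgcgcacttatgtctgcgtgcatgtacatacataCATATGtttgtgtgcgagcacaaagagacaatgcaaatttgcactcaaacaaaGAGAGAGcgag
Raf summit 4, chrX:2297685-2297785: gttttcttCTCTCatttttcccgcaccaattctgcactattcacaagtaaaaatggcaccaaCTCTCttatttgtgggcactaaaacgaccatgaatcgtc
Raf summit 5, chrX:2299162-2299262: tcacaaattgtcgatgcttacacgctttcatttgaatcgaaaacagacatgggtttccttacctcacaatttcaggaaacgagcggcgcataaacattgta
Raf summit 6, chrX:2300669-2300769: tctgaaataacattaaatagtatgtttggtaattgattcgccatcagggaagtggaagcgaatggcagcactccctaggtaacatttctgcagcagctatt
Raf summit 7, chrX:2302227-2302327: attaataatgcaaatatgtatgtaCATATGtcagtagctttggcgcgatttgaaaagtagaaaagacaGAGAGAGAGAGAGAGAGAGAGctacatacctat
Raf summit 8, chrX:2304047-2304147: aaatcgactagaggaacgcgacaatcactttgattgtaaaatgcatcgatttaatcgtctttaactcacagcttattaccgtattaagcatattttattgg

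None of these 7 windows held the achaete-scute and Daughterless heptamer. In the wider windows of 100 bp on each side that were used for all counts, 1 of the 8 Raf summits held it and 3 held CATATG. Another 2 windows show a match close to a summit. The outermost summit of the neighbourhood at CHES-1-like had the heptamer beside its summit, although it was a chain end with 1 other summit in reach and no member. A clustered summit 352 bp from a start of CG43736 held CATATG, and its number also counts along its neighbourhood.
CHES-1-like summit 1, chrX:7690814-7690914: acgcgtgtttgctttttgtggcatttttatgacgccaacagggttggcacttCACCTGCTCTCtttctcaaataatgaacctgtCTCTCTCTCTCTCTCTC
CG43736 summit 8, chrX:6863486-6863586: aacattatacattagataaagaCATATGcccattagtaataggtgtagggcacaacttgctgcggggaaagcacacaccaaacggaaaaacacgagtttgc

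A match of letters is a description and does not show that a protein sat there. A window without one says only that these letters were not in it.

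The rule found similar numbers in every replicate. Applied to the 3612 regions of highest signal in each replicate's own list, it gave 704 clustered summits in replicate 1, 757 in replicate 2 and 737 in replicate 3. The share was 20.3% ± 0.741 (SD, n = 3). Of all thresholded summits, 1808 had no other summit within 5000 bp, 1041 had 1, 481 had 2, 196 had 3, 69 had 4, 15 had 5 and 2 had 6. At the edge of the rule, the member with the most distant second neighbour had it at 4978 bp, and the nearest summit left out had it at 5004 bp. Between 4500 and 5000 bp there were 89 members, and from there to 5500 bp there were 60 summits outside the rule.

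Individual members were less stable than their number. Of the 763, 304 were also clustered by the same rule in all 3 replicate lists, 226 in 2 lists, 189 in 1 list and 44 in none. The summit itself was among the 3612 highest of all 3 replicates for 488 members (64.0%, 95% Wilson interval 60.5 to 67.3%). The share among the 2849 other summits was 62.1% (60.3 to 63.8%), and the intervals overlap.

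Most neighbourhoods were small. Of the 244, 149 held 3 summits, 51 held 4, 31 held 5, 6 held 6, 4 held 7, 1 held 8 and 2 held 9. The first to the last summit spanned a median of 4784 bp, with a range from 559 to 18276 bp. Clustered summits made up 22.4% of the summits on 2L, 21.5% on 2R, 20.0% on 3L, 19.5% on 3R and 23.7% on X. None of the 17 summits on chromosome 4 was clustered. The 95% Wilson intervals of the 5 large arms overlap, from 17.0% at the lower end for 3R to 27.2% at the upper end for X. In the replicates' own lists the share on 3R was 18.0%, 18.0% and 16.8%, the lowest of the 5 large arms in each replicate, and the share on X was 20.9%, 25.5% and 21.4%. This difference between arms was not tested. The 3 neighbourhoods with 8 clustered summits were all on X.

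Distances between neighbouring summits fell into 2 ranges with few values between them. The 652 distances had a median of 1673 bp and a minimum of 199 bp. Of these, 80 (12.3%) were under 250 bp, 12 lay from 250 to under 600 bp, 102 from 600 to under 1000 bp, 184 from 1000 to under 2000 bp and 274 at 2000 bp or more. No summits of the whole list lay closer than 199 bp. The short distances came with overlap, since 78 pairs of neighbouring regions overlapped.

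**Figure D1:**
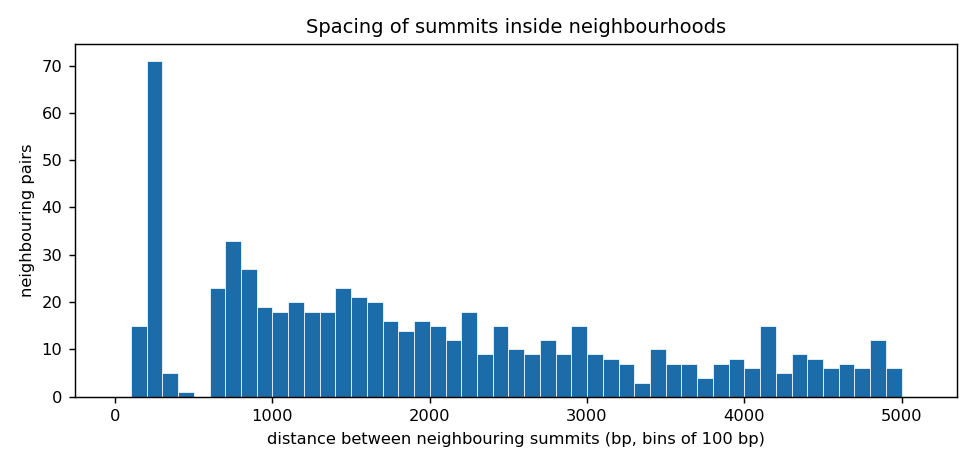
Distances between neighbouring summits inside the 244 neighbourhoods, in bins of 100 bp on the x axis, with the number of pairs on the y axis. Of the 652 distances, 80 lie under 250 bp and few lie between there and 600 bp.

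Overlap was more common among members than elsewhere, and overlapping members were found less often in all replicates. The region of 153 clustered summits (20.1%) overlapped a neighbouring region, against 5.27% of other summits, a difference that the rule favours because an overlapping neighbour counts as near. Members with an overlap were among the highest of all 3 replicates in 39.2% of cases, and members without one in 70.2%. Within the 78 overlapping pairs, the stronger summit was found in all 3 replicates in 49 cases (62.8%) and the weaker summit in 11 (14.1%). Each replicate region was matched to its nearest summit only. A replicate with 1 region at a pair could thus count for only 1 of its summits, so these shares are partly fixed by the matching. Stronger and weaker were also set by the pooled signal of the same replicates. Whether a pair marks separate binding events or 1 event that was split was not tested. With overlapping regions counted once, 594 summits in 207 neighbourhoods met the rule.

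Members had a slightly higher signal than other summits in the pooled list. The median was 249.9 for clustered summits, with a range from 146.1 to 2359, and 226.6 for other summits. It was 221 with no other summit within 5000 bp, 235 with 1, 245.9 with 2, 261 with 3 and 273 with 4 or more. Signal and the presence of a summit in the list come from the same measurement, so no test is given. The highest member lay 213 bp from a start of px, and the next, at 2274, lay inside ush, and both were picked after their values were seen.

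Summits within a neighbourhood differed in height. The strongest summit had a median of 2.40 times the signal of the weakest, from 1.06 to 13.0 times. It sat at an end of the chain in 132 neighbourhoods and inside it in 112. In 194 neighbourhoods every summit was matched in every replicate, and in 137 of those (70.6%) the same summit was strongest in the pooled list and in all 3 replicates.

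Members lay at promoters less often than other summits, in all 3 replicates. A promoter was taken as 500 bp to either side of any protein-coding start. Clustered summits were at promoters in 25.3%, 26.8% and 25.6% of cases in replicates 1, 2 and 3, and other summits of the same lists in 44.0%, 42.0% and 40.4%. The ranges do not overlap. The mean was 25.9% ± 0.801 for clustered and 42.1% ± 1.80 for other summits (SD, n = 3), and the difference was -16.2 ± 2.18 percentage points. The exact two-sided sign-flip permutation test over the 3 replicates gave p = 0.25, the smallest value that 3 replicates allow, and 0.375 after Benjamini-Hochberg adjustment over 6 classes, so no class can pass 0.05.

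Introns and intergenic sequence took up the difference. Clustered summits were intronic in 48.9%, 47.8% and 49.5% of cases in the 3 replicates, against 36.1%, 37.5% and 37.9% for other summits, a difference of 11.5 ± 1.23 percentage points (SD, n = 3). They were intergenic in 24.3%, 23.9% and 23.3%, against 18.7%, 18.9% and 20.3%, a difference of 4.53 ± 1.33 points. The intergenic difference was 2.49 points with promoters of 250 bp and 9.72 points with fewer regions per replicate. Both differences had the same sign in all 3 replicates, with exact p = 0.25 and adjusted p = 0.375. The 5' UTR share was higher by 0.184 ± 0.121 points in all 3 replicates, with the same p-values. Coding sequence and 3' UTR showed no common direction, with differences of -0.117 ± 0.173 and 0.0692 ± 0.0946 points and exact p = 0.5 (adjusted 0.5). No thresholded member took the class of coding sequence, which was given only outside promoters and 5' UTRs. With 763 summits this allows that class a share up to 0.393% by the limit of 3 counts and 0.501% by the Wilson interval. A member in coding sequence near a start would count as a promoter summit, so these limits do not cover all coding sequence.

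**Figure D2:**
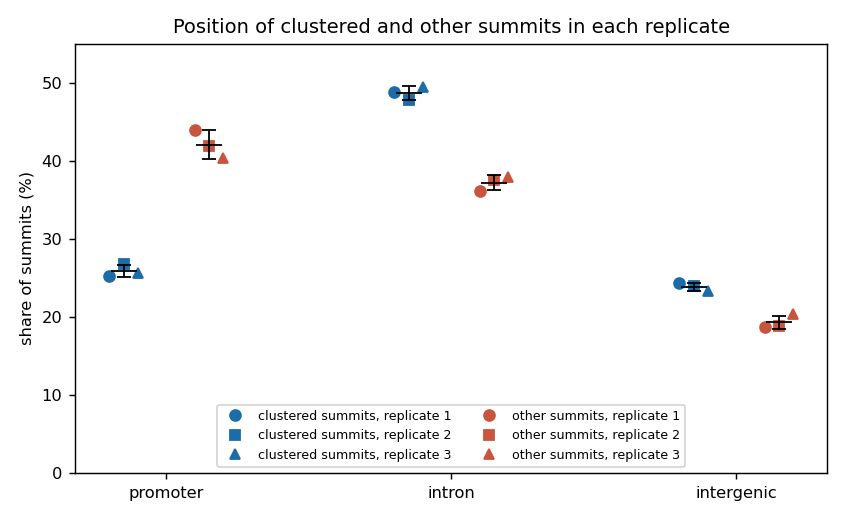
Share of summits at promoters, in introns and in intergenic sequence, in percent on the y axis, for clustered (blue) and other (red) summits of each replicate's list. Black marks give mean ± SD over 3 replicates. In all 3 replicates the promoter points of clustered summits lie below those of other summits, and the intron and intergenic points lie above.

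The thresholded list showed the same order. There 25.2% of clustered summits were at promoters (95% Wilson interval 22.2 to 28.4%), against 41.1% of others (39.3 to 43.0%). These intervals treat summits of the same neighbourhood as separate and are therefore too narrow. By number of other summits within 5000 bp, the promoter share was 41.9% with none, 39.9% with 1, 28.1% with 2, 18.9% with 3 and 23.3% with 4 or more. Of all regions in the pooled list, 20.8% were at promoters, 43.5% in introns and 28.4% in intergenic sequence. Members of the thresholded list thus had a higher promoter share and a lower intergenic share (24.6%) than the pooled list. The differences above hold only against other summits of the same lists. The median distance to the nearest start was 1948 bp for clustered and 974 bp for other summits. No protein-coding start lay within 5000 bp of 26.3% of members and of 23.6% of the 2849 others.

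By neighbourhood, 126 of the 244 had at least 1 promoter summit and 118 had none. All summits were at promoters in 22, all in introns in 66 and all in intergenic sequence in 42. The strongest summit was at a promoter in 69. A single gene territory, meaning the gene body with 2 kb upstream, held every summit in 136 neighbourhoods. The nearest start belonged to 1 gene throughout in 156, to 2 genes in 62 and to 3 or more in 26.

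Sequence at members and at other summits differed by small amounts, with mean differences between -1.24 and 3.02 percentage points for 12 motifs. Windows of 100 bp on each side of the summit were searched on both strands. The first motif was the heptamer of achaete-scute proteins with Daughterless, given above. The E-boxes were CAGCTG (E-box 1, which lies within the first form of the heptamer), CAGGTG (E-box 2, which lies within the second form), CATATG (E-box 3), CACGTG (E-box 4) and CATCTG (E-box 5). GAGAG is bound by the GAGA factor. The GATA site was AGATAA or AGATAG or TGATAA or TGATAG. TATCGATA is bound by the factor DREF, and CAGGTAG by the early activator Zelda. The HMG-box heptamer was CCATTGT or CCTTTGT. The control heptamer, with no known factor, was GACGCTC or GACGGTC. In all 3 replicates 2 of the 12 were more frequent at clustered than at other summits, 6 were less frequent, and 4 had no common direction. The exact sign-flip permutation test gave p = 0.25 for the 8 with a common direction and 0.375 after adjustment over the 12.

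CATATG had the widest difference. It was in 9.52%, 11.8% and 11.0% of clustered windows in replicates 1, 2 and 3, against 8.08%, 7.43% and 7.69% of other windows. The ranges do not overlap, and the difference was 3.02 ± 1.47 percentage points (SD, n = 3, exact p = 0.25). In the thresholded list the shares were 9.96% (95% Wilson interval 8.03 to 12.3%) and 8.04% (7.10 to 9.09%), and those intervals overlap. Among summits over 500 bp from every start the difference was 1.58 ± 1.54 points, and members also differed in promoter share. Of all windows of the same length in the pooled list, 7.22% held it. Of the 244 neighbourhoods, 179 had no such window, 51 had 1, 11 had 2 and 3 had 3.

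The heptamer of Scute's own family differed by less than its spread. It was in 5.68%, 5.28% and 4.34% of clustered windows, against 5.06%, 5.22% and 4.31% of other windows. The difference was 0.240 ± 0.335 percentage points, with the same sign in all 3 replicates (exact p = 0.25). Without replicate 1 it was 0.0470 points. The sign turned with 1 summit per neighbourhood (-1.84 points) and in windows of 200 bp (-1.67 points). The heptamer stood in 6.52% of all pooled windows, against 5.24% of members and 4.46% of other summits in the thresholded list. GC content was 39.0% in all pooled windows, against 34.6% at members and 34.7% at other summits, and was not adjusted for. Of the 244 neighbourhoods 199 had no such window, 44 had 1 and 1 had 2.

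Among the motifs that were less frequent at members, TATCGATA was in 1.09% ± 0.389 of clustered and 2.27% ± 0.223 of other windows (SD, n = 3), and in 1.22% of all pooled windows. The difference was -1.18 ± 0.248 points, and -0.201 ± 0.126 among summits over 500 bp from every start. The HMG-box heptamer differed by -1.24 ± 0.431 points and was in 5.92% of all pooled windows. The GATA site differed by -1.11 ± 0.357 points, but by 4.26 ± 0.733 with 1 summit per neighbourhood, and was in 34.5% of all pooled windows. CAGCTG differed by -1.02 ± 1.08 points, CACGTG by -0.414 ± 0.251 and CATCTG by -0.303 ± 0.256, and 8.69%, 2.27% and 7.95% of all pooled windows held them. Each of these 3 lost its common direction under at least 1 alternative. The 4 motifs with no common direction were CAGGTG (0.444 ± 0.527 points, in 6.60% of all pooled windows), CAGGTAG (0.270 ± 0.479, in 1.08%), GAGAG (0.234 ± 2.13, in 21.6%) and the control heptamer (-0.208 ± 0.258, in 1.33%). Their exact permutation p-values were 0.5 for E-box 2, the Zelda heptamer and the control heptamer and 0.75 for GAGAG. GC content was 34.9% ± 0.690 in clustered and 35.1% ± 0.470 in other windows, a difference of -0.234 ± 0.221 points (exact p = 0.25). With 1 summit per neighbourhood the GC difference was -1.35 ± 0.132 points. GC content was 39.0% in all pooled windows, so their motif shares come from sequence with more GC.

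**Figure D3:**
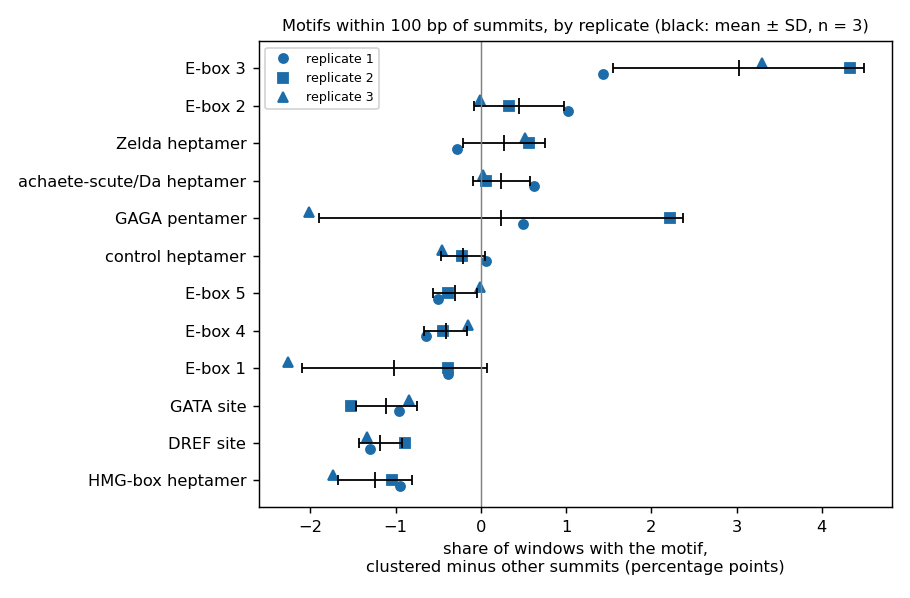
Difference in the share of windows that hold each of 12 motifs, clustered minus other summits in percentage points on the x axis, by replicate, with mean ± SD in black. The E-boxes are numbered 1 to 5 as in the text. E-box 3, with a mean of 3.02, lies farthest from 0.

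Separate windows of a neighbourhood shared no exact run of 16 bases on the same strand. Inverted copies and inexact repeats were not searched. Of 1309 pairs of windows in the same neighbourhood that did not overlap, 0 shared a run of 16 bases. Annotated transposable elements held 1 clustered and 8 other summits.

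Of the 12 neighbourhoods with the most clustered summits, 11 are described. At Raf the distances between successive summits were 942, 1617, 1455, 1477, 1507, 1558 and 1820 bp. The fourth summit, in an intron, was the strongest, with a pooled signal of 932 and signals of 297, 344 and 287 in replicates 1, 2 and 3. It was the strongest in each replicate. The second summit, in intergenic sequence 803 bp from a start of Raf, was the weakest at 164. Its rank was 13427 in replicate 1, 2225 in replicate 2 and 2779 in replicate 3, so it was the only one of the 8 that was not among the 3612 highest in all replicates.

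Both other neighbourhoods with 8 clustered summits had longer spans. CHES-1-like (FBgn0029504), a forkhead-domain gene, held 9 summits over 18276 bp (chrX:7690649-7709188), 7 of them intronic and 2 at promoters. Its pooled signals ran from 154 to 664, and 8 of the 9 were found in all replicates. The neighbourhood over CG14434 and CG43736 held 9 summits over 18117 bp (chrX:6849508-6868054), with signals from 184 to 512, 4 at promoters and 5 in introns. Its first summit, which was not clustered, lay 47 bp from a start of CG4558. In neither of these 2 neighbourhoods was the strongest pooled summit also the strongest in every replicate.

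On 3L, 7 clustered summits lay over msn, RpL8 and dos (chr3L:2578689-2590913). msn encodes a kinase upstream of JNK signalling, dos an adaptor of receptor tyrosine kinases and RpL8 a protein of the large ribosomal subunit. The strongest summit, at 453, was in an intron of msn, with signals of 125, 185 and 141 in the 3 replicates, and the RpL8 summit lay 36 bp from a start with a signal of 275.

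The neighbourhood at COX7AL2 on 2L (chr2L:2196445-2202578) held 6 clustered summits, 4 of them in the territory of COX7AL2. Its signals were 162, 228, 170.3, 439.6, 786 and 1396 from the first to the sixth summit. The last, in intergenic sequence 3755 bp from a start of CG31668, had signals of 393, 549.8 and 448 and ranks of 26, 22 and 21 in the 3 replicates. The first and the third were each among the 3612 highest in 1 replicate, and the second in 2. Pgk, a glycolytic kinase, and its neighbour Bacc shared the other large neighbourhood on 2L (chr2L:2748695-2759828). It had 7 summits, 6 of them clustered and 5 at promoters, with signals from 187 to 388, and the last lay 119 bp from a start of Tnpo-SR.

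On 2R, shn held 6 clustered summits within 2362 bp, all in introns. shn encodes a zinc-finger factor of Dpp signalling. Its summits formed 3 overlapping pairs about 200 bp apart, with distances of 203, 199 and 208 bp. The first of each pair had a signal of 621, 373 and 375 and was found in all 3 replicates. The second had 185, 212 and 189 and was found in 1, 0 and 2 replicates, so the number of clustered summits at shn rests on the weaker summit of each pair. Each replicate region was matched to its nearest summit only, which can lower the count for a summit of a pair.

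Among the other neighbourhoods, tna on 3L, which encodes a SUMO-ligase-like protein, held 7 intronic summits over 17549 bp with signals from 175 to 412. otk, a gene for a receptor-like pseudokinase, held 7 with signals from 157 to 297, 2 of which were found in all 3 replicates. At tna and otk 6 of the 7 were clustered. Both had 1 overlapping pair, as had sbb and the neighbourhoods at CG14434, msn, COX7AL2 and Pgk. sbb, which encodes a corepressor, held 6 intronic summits, 5 of them clustered, and the third was found in 1 replicate only. The fourth, at 1296, had signals of 389, 549 and 354. On X, ph-p, a Polycomb group gene, held 4 of 5 clustered summits, and the fifth lay 405 bp from a start of D2hgdh. The strongest was at a ph-p promoter with a pooled signal of 1749 and ranks of 9, 6 and 10, and it was the strongest in every replicate.

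**Figure D4:**
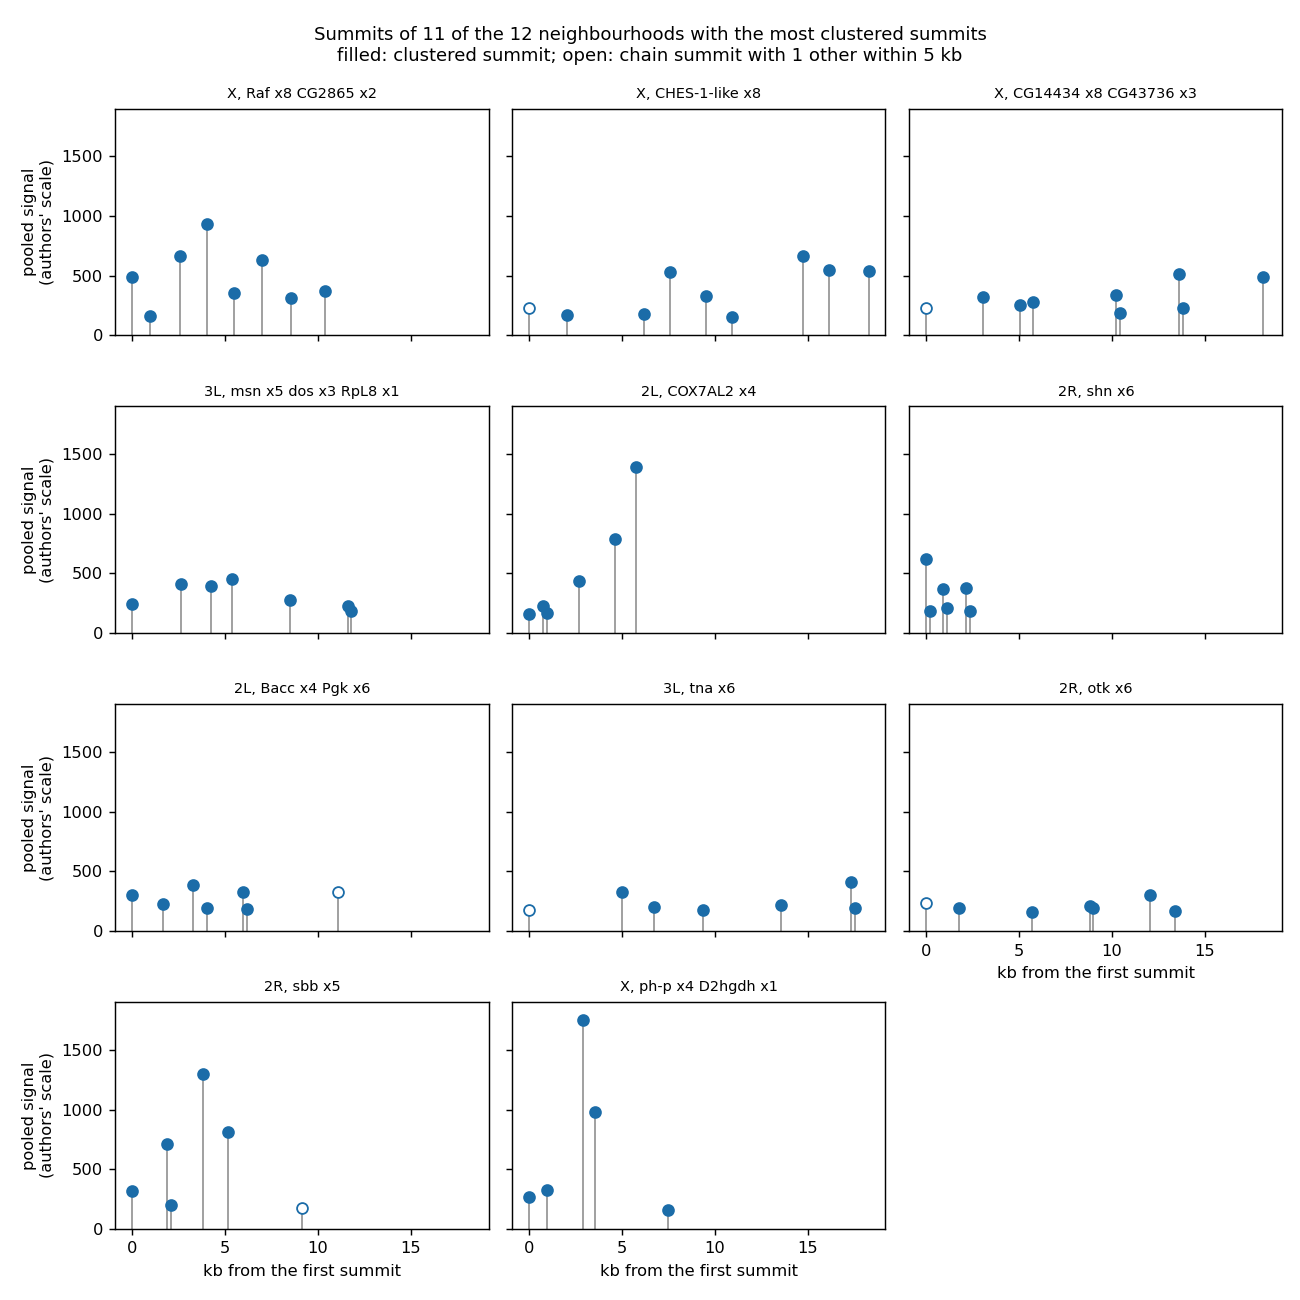
Pooled signal of each summit (y axis, the authors' scale) against its distance in kb from the first summit (x axis) in 11 of the 12 neighbourhoods with the most clustered summits. Filled points are clustered summits and open points are chain ends with 1 other summit within 5 kb. Raf shows 8 summits with distances from 942 to 1820 bp. The neighbourhood at COX7AL2 has 162 at its first summit and 1396 at its last, which is nearest to a start of CG31668.

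Few genes held clustered summits. Of 13945 protein-coding genes, 336 (2.41%) had a clustered summit in their territory, and of the 2858 with any thresholded summit the same 336 made up 11.8%. There were 125 genes with 1 clustered summit, 70 with 2 and 141 with 3 or more, and 23 had 5 or more. Genes with a clustered summit were long, with a median length of 8.18 kb against 4.26 kb for genes with thresholded but no clustered summits and 2.17 kb for all. Those with 3 or more had a median of 21.1 kb, and a long territory offers more room for summits. Of the 763 members, 153 lay in no territory. The gene with the most, CG1677 with 12, spans 125 kb and contains brk, so a summit can count for both, and it was named after its values were seen.

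The gene lists are set beside the 2.41% of all genes. They were chosen with earlier results of these data known, so the counts are a description. Of the 15 lists, 10 lay above that percent, 2 below with 1 gene each and 3 had no gene. Median gene length ran from 1.14 kb in the Notch list to 42.0 kb in the ecdysone list, against 2.17 kb for all genes. A thresholded summit was in 2858 of all 13945 genes, in 14 of 16 sensory organ precursor genes and in 4 of 179 chemoreceptor genes. Neither was adjusted for, so these positions are not a result about the lists.

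Notch pathway genes, counted together with those of the E(spl) and Brd complexes, had a clustered summit in 7 of 25 cases (28.0%, 95% Wilson interval 14.3 to 47.6%). The E(spl) genes lie side by side, so a neighbourhood can count for several of them. E(spl)m3-HLH, Kaz-m1 and E(spl)m2-BFM lay in the same neighbourhood, and E(spl)m8-HLH and gro had the same highest signal of 233. The interval treats the genes as separate and is therefore too narrow. E(spl)m3-HLH and E(spl)m7-HLH encode bHLH repressors that answer Notch. The E(spl)m3-HLH promoter summit, 367 bp from the start, had a pooled signal of 844 and ranks of 182, 113 and 94 in the 3 replicates. The E(spl)m7-HLH promoter summit, 342 bp from the start, had 628 and ranks of 232, 162 and 395. Kaz-m1 and E(spl)m2-BFM, also in the complex, had highest signals of 202 and 359.6. With the gene body alone as territory, 1 of the 25 had one, and 4 had one without replicate 1 and also without replicate 2.

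The proneural list had none of its 11 genes with a clustered summit, and 2 had a thresholded one. The upper end of the 95% Wilson interval was 25.9%, so shares well above the 2.41% of all genes lie within counting error. This list also held emc and nau, and nau was in the mesoderm and muscle list too. ac, sc, l(1)sc and ase had 0 thresholded summits in their territories. The nearest thresholded summit was 7731 bp from ac, 13050 bp from sc, 26711 bp from l(1)sc and 2798 bp from ase, each with no other summit within 5000 bp. da, the gene of Daughterless, had 1 thresholded summit, 1574 bp from its start, with a signal of 196 and 1 other in reach. Of sensory organ precursor genes 2 of 16 had a clustered summit (12.5%, 95% Wilson interval 3.50 to 36.0%). A thresholded summit was in 14 of them, and 2 of 14 is near the 11.8% of all genes with a thresholded summit. pnt, an ETS factor of EGF receptor signalling, held 4 with signals of 202 to 268, and edl, a regulator of that pathway, held 3 with a highest signal of 827.

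Ecdysone and nuclear receptor genes had a clustered summit in 4 of 16 cases (25.0%, 10.2 to 49.5%), in genes with a median length of 42.0 kb. Hr3 held 4 that formed 2 overlapping pairs, Hr4 and Eip75B held 3 each, and EcR, the ecdysone receptor, held 1 at a signal of 165. A start of CG46321 was nearest to all 4 Hr3 summits, at 1891 to 2980 bp. With overlapping regions counted once, 2 of the 16 had one, and by nearest start 3 had one. The highest in the group was a summit in an intron of Hr4 at 975, with ranks of 71, 80 and 73.

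Dorsal-ventral genes had one in 4 of 18 cases (22.2%, 9.0 to 45.2%). They were shn, described above, ush, sog and brk. ush, a cofactor of GATA factors, held 5, of which the strongest had a signal of 2274 and ranks of 4, 1 and 2, although a start of cbt was nearer at 1367 bp. sog, a secreted inhibitor of Dpp, held 4 intronic summits with signals from 157 to 380.3. brk, a repressor of Dpp targets, had 2 at 736 and 568 in overlapping regions upstream of its start.

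Polycomb group genes had one in 3 of 19 cases (15.8%, 5.52 to 37.6%), namely ph-p, ph-d and phol. The phol summit, at 790.5, lay nearer to a start of CG3552, at 114 bp. ph-d held 3, the strongest at 1056 with ranks of 48, 71 and 52. ph-p and ph-d are tandem copies, and reads shared between them were not tested. Trithorax and GAGA genes had one in 2 of 12 cases (16.7%, 4.70 to 44.8%), and in 1 with the gene body alone, without replicate 1, without replicate 3 or with overlaps counted once. Trl, the gene of the GAGA factor, held 5 with signals from 165 to 1480, of which the highest ranked 16, 18 and 18. The gene CG42507 overlaps it. skd held 1 at 168.

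Cytoplasmic ribosomal protein genes had one in 9 of 87 cases (10.3%, 5.54 to 18.5%), and 58 had a thresholded summit. RpL13A and RpS25 had promoter summits at 474 and 478 within 43 and 41 bp of a start, and RpL32 held 2 in overlapping regions at 354 and 154. RpS14b counted 2, but 1 of them lay 55 bp from the start of its near-identical copy RpS14a, so that count is uncertain. With the gene body alone, 1 of the 87 had one. The Hox list had 1 of 10, lab, with signals from 149 to 256. The cell cycle list had 1 of 15, trbl, an inhibitor of String, with 3 from 232 to 329.9. The anterior-posterior list had 1 of 23, bcd, at 214.

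No gene of the mesoderm and muscle list (0 of 18) or the HMG-box and insulator list (0 of 14) had a clustered summit, and 11 and 6 had a thresholded one. The upper ends of the 95% Wilson intervals were 17.6% and 21.5%, so shares well above the 2.41% of all genes lie within counting error. Below that percent were the chemoreceptor genes with 1 of 179 (0.559%), which was Gr93a at 158, and the dpr, DIP, beat and side genes with 1 of 54 (1.85%). That gene, beat-Ib, which encodes an axon guidance protein, held 4 with signals of 200.2, 714, 375 and 476 in an intron. They lay 49284 to 53685 bp from its start, and starts of CG31821 and CG13244 were nearer, at 3737 to 6340 bp.

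**Figure D5:**
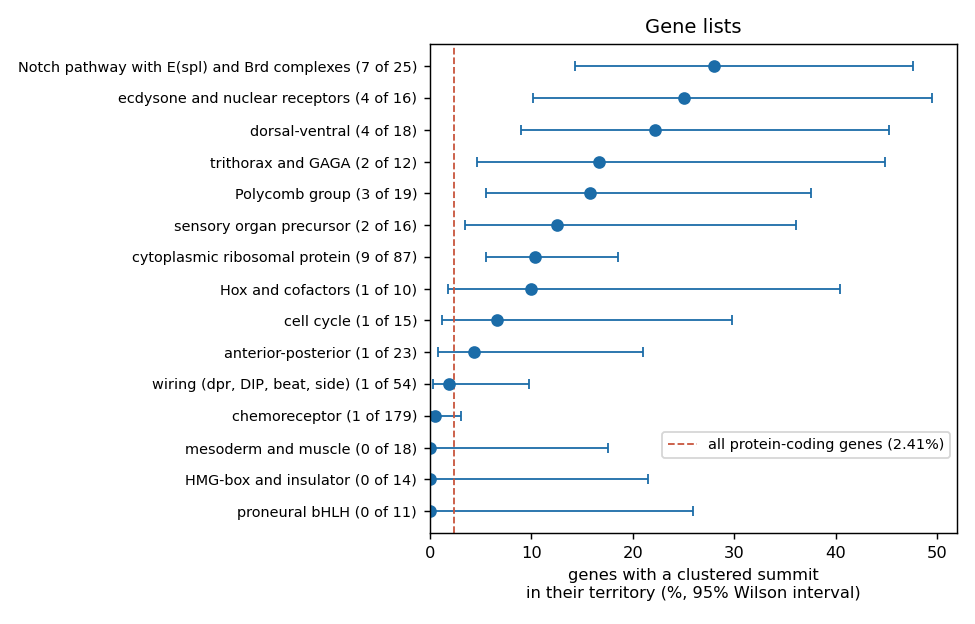
Share of genes with a clustered summit in their territory, in percent on the x axis, for 15 gene lists, with 95% Wilson intervals. The dashed line marks the 2.41% of all protein-coding genes. The Notch pathway list, in which several genes share a neighbourhood, is highest at 28.0%, and 3 lists have no gene. Gene length was not adjusted for.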

How the data were processed

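Scute ChIP-seq regions of 3 replicates in a single group were analysed. The deposited dm6 lists held 30000 regions per replicate and 30000 for the pooled replicates, and the authors' irreproducible discovery rate (IDR) threshold left 3612, as the deposited text says. The deposited lists give a signal per region, on its own list's scale and not normalized between libraries. They also give the −log10 of the q-value, as deposited by the authors, and the offset of the summit from the region start. No source used here names the peak caller or the aligner. The deposited dm3 list served only for an alternative count.

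Positions are 1-based in dm6 and were read with the Release 6 genome sequence and Ensembl release 115 genes. A replicate region was matched to its nearest thresholded summit within 250 bp. Each summit took the first class that applied of promoter, 5' UTR, CDS, 3' UTR, intron and intergenic. Replicates were compared by exact two-sided sign-flip permutation tests with Benjamini-Hochberg adjustment over 6 classes and over 12 motifs, 19 comparisons with GC content. Wilson intervals (95%) and the upper limit for a count of 0 (3 counts) cover counting error only. They treat summits, and genes of a list, as separate, and are too narrow where these share a neighbourhood. Scripts were tested on simulated positions and ran in Python 3.11.15 with numpy 2.4.6, scipy 1.17.1 and matplotlib 3.10.9.

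The members, gene lists and tests were chosen with earlier results of these data known. Neighbourhoods were named from the 12 with the most clustered summits, with ties broken by summed pooled signal, of which 1 is not reported here, and up to 4 genes per list were named by their number of clustered summits. Overlap groups, shared 16-base runs, transposable elements, starts within 5000 bp and the strongest summit per replicate were added after seeing the data. Alternatives covered distance, number of neighbours, threshold, windows, territories and single replicates left out. With 1 summit per neighbourhood, only the clustered summits were reduced, and all other summits stayed in the comparison.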

Additional observations from a re-analysis of the deposited data

Results flagged for a closer look

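Regions of the pooled list that missed the IDR threshold were not used for the members. Of 2892 such regions with a q-value under 5%, 95 (3.28%) lay between the outer summits of a neighbourhood. They lay in 80 of the 244 neighbourhoods, whose summed span of 1285 kb is 0.959% of the 6 chromosome arms. No control list was analysed here, so this signal was not set against a background.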

How the results depend on the processing

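With 3 replicates no p-value can pass 0.05, so a difference between clustered and other summits was followed by whether all replicates lay on the same side, a criterion chosen after the values were seen. No samples of different groups could be paired, because the study has a single group. Clustered and other summits were compared within each replicate's own list, so the sign-flip permutation test used differences paired by replicate. Of 296 alternative values, 222 kept their direction and their side of that criterion, or for counts stayed within 1.5 times the main value. Part of the 222 was fixed in advance. Where all 3 replicates lay on the same side, leaving a replicate out cannot change the direction. A list with no gene cannot gain one with gene bodies alone. The promoter, intron and intergenic differences, CATATG, TATCGATA and the HMG-box heptamer were among the 222 under every alternative run for them, but their size changed. CATATG ranged from 1.58 (over 500 bp from every start) to 4.65 percentage points (1 summit per neighbourhood), TATCGATA from -0.201 (over 500 bp from every start) to -2.72 (windows of 200 bp), the HMG-box heptamer from -0.649 (windows of 50 bp) to -2.20 (1 summit per neighbourhood) and the intergenic difference from 2.49 (promoters of 250 bp) to 9.72 (fewer regions per replicate).

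The counts of clustered summits and neighbourhoods were 310 and 127 at 2500 bp, 1339 and 373 at 10000 bp, 282 and 84 with 3 or more others, 1804 and 698 with 1 or more others, and 199 and 74 in the 50% of thresholded regions with the highest signal. Leaving out a replicate meant keeping regions found in both others, which by construction leaves fewer, and gave 325 to 371 and 114 to 124.

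Sign changes came with 1 summit per neighbourhood for the achaete-scute and Daughterless heptamer (-1.84 percentage points), CAGGTG (-0.156), the GATA site (4.26), CAGGTAG (-0.00630), 5' UTR (-0.0716) and 3' UTR (-0.476). At 2500 bp they came for 5' UTR (-0.0246), CDS (0.0787) and 3' UTR (-0.141), and at 10000 bp for 3' UTR (-0.124). Windows of 50 bp reversed GC content (0.0110) and windows of 200 bp the heptamer (-1.67) and CAGGTG (-0.0407). GAGAG reversed over 500 bp from every start (-2.64) and without replicate 2, with a range from -0.760 to 1.36 over the replicates left out. Counting overlapping regions once, an alternative added after seeing the data, reversed 3' UTR (-0.195) and GAGAG (-0.424).

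A common direction was lost for 5' UTR with promoters of 1000 bp (0.00583) and overlaps counted once (0.169). It was lost in windows of 50 bp for the heptamer (0.372), CAGCTG (-0.0276), CACGTG (-0.128) and the GATA site (-0.762), in windows of 200 bp for the GATA site (-0.599), over 500 bp from every start for CAGCTG (-0.226), and with overlaps counted once for CAGCTG (-0.695), CATCTG (-0.616) and the GATA site (-0.647). One was gained for CDS with promoters of 250 bp (-0.164), 1 summit per neighbourhood (-0.255), 10000 bp (-0.209) and fewer regions per replicate (-0.231), for the control heptamer with 1 summit per neighbourhood (-0.662) and overlaps counted once (-0.410), for CAGGTG in windows of 50 bp (0.649), for GAGAG and CAGGTAG in windows of 200 bp (1.24 and 0.490) and for CAGGTAG with overlaps counted once (0.529). The causes were not tested.

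With gene bodies alone 203 genes had a clustered summit, 1 each in the Notch, trithorax and ribosomal protein lists and 0 in the anterior-posterior and chemoreceptor lists. With 5 kb on both sides 561 genes had one, with 1 each in the proneural and mesoderm lists and 2 each in the cell cycle and wiring lists. By nearest start the anterior-posterior list had 2. With a replicate left out the Notch list had 4 to 5, the trithorax list 1 to 2 and the chemoreceptor list 0 to 1. With overlaps counted once the trithorax list had 1 and the ecdysone list 2. Read depth is unknown, which limits what an unlisted summit means.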
